A study of Mus musculus with 25 samples.

Results

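Mitophagy receptors and adaptors are the proteins that select a mitochondrion for degradation. The set examined here was fixed by name and held 9 genes, Pink1, Bnip3, Bnip3l, Fundc1, Bcl2l13, Phb2, Optn, Sqstm1 and Tax1bp1, and all 9 had a row among the 8829 genes measured. They were followed in the gastrocnemius, a mixed hindlimb muscle, of male SAMP8 mice, a senescence-accelerated strain used as a model of age-related muscle decline. The control group of 11 mice received the vehicle, corn oil, by mouth. The thymol group of 14 mice received thymol, a plant monoterpene phenol, at 20 mg per kg on each dosing day. By the paper, dosing did not cover every day of the week. Both groups were 8 months old at the start and were treated for 3 months. Each mouse gave 1 library of 3′ end mRNA sequencing (QuantSeq), which reads transcripts near their 3′ end, so levels of different genes were compared without division by length. By the paper the libraries were amplified by PCR, and amplification that differs between genes was not separated from level. All animals were of 1 prematurely ageing strain and 1 sex, and no younger or normally ageing group was part of the comparison.

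In damaged mitochondria the kinase PINK1 accumulates on the outer membrane and phosphorylates ubiquitin there. Ubiquitin chains on the mitochondrion are then read by adaptors, among them optineurin (Optn), p62 (Sqstm1) and TAX1BP1, which also bind the LC3 and GABARAP proteins on the growing autophagosome. BNIP3, NIX (Bnip3l), FUNDC1, BCL2L13 and prohibitin 2 (Phb2) sit in mitochondrial membranes and bind these proteins directly, without need of ubiquitin. In skeletal muscle BNIP3 is known as a transcript that responds to hypoxia, fasting and FoxO factors.

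Promoters were read because Bnip3 moved between mice together with Pink1 and with Gabarapl1, a gene of the GABARAP family, as described below. RefSeq windows from 250 bases before to 50 bases after the start site (GRCm38.p6, 300 bases) were found for 8 of the 9 genes, all but Bnip3l, and for Gabarapl1. The windows below run 5′ to 3′ on the gene's strand and lie at chr7:138909457-138909756 (minus strand) for Bnip3, chr4:138326247-138326546 (minus strand) for Pink1 and chr6:129532942-129533241 (plus strand) for Gabarapl1. Capitals mark CACGTG, the only stretch of these 3 windows that matched the letters searched.
Bnip3: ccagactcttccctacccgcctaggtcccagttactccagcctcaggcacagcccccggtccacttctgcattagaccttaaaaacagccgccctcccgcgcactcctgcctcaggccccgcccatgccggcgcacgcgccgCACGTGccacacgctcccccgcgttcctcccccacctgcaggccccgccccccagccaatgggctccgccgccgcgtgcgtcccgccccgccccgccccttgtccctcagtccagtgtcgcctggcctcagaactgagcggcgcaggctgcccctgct
Pink1: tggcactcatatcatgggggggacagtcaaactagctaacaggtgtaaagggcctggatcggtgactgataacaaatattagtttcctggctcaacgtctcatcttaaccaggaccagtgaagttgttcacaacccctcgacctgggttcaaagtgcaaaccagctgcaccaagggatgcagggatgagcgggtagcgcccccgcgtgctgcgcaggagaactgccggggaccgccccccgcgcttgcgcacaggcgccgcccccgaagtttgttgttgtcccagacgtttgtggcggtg
Gabarapl1: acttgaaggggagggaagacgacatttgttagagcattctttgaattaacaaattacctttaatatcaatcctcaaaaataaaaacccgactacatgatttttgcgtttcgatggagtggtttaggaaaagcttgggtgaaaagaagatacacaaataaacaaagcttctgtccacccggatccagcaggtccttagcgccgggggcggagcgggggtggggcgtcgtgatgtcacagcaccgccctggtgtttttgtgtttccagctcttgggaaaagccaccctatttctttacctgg
Both strands were searched for ACGTG, a form of the core letters bound by hypoxia-inducible factors. The form GCGTG was not searched, and it stands unmarked in the printed Bnip3 and Pink1 windows. The search also covered the E-box CACGTG, which contains ACGTG on each strand, and GTAAACA, letters bound by FoxO factors. Other forms of the FoxO letters were not searched. The Bnip3 match began at position -108, counted from the start site. ACGTG was held by 19.62% of the 32851 promoter windows, CACGTG by 7.15% and GTAAACA by 3.65%, so such matches are common. Among the other members, 1 of the 2 windows of Tax1bp1 held ACGTG at position -155, and Phb2 held it at position -198. The absence of a match says only that these letters are not in that window.

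All 9 transcripts were detected in every mouse, but at very different levels. The highest was Sqstm1, with a mean of 8.47 log2 CPM (reads of the gene scaled to a fixed library size), and Pink1 followed at 8.26. The middle of the order was held by Bnip3 at 6.66, Tax1bp1 at 6.49 and Phb2 at 6.39 log2 CPM. Bcl2l13 (5.54), Optn (5.21), Bnip3l (4.10) and Fundc1 (3.78 log2 CPM) were lowest. Within a mouse, Pink1 exceeded Bnip3 in 25 of 25 mice, by 1.59 ± 0.22 log2 (SD), which is 3.01-fold. Phb2 exceeded Bcl2l13 and Optn exceeded Bnip3l in 25 of 25 mice as well. Other neighbours changed places in some mice. Sqstm1 was above Pink1 and Bcl2l13 above Optn in 23 of 25 mice, and Bnip3 was above Tax1bp1 and Bnip3l above Fundc1 in 20 of 25. Tax1bp1 and Phb2, which differed by 0.10 ± 0.22 log2, were in that order in 16 of 25 mice. Sequence shared with other genes (Bnip3, Phb2) and genes on the other strand (Sqstm1, Bcl2l13, Phb2) make these levels less certain, as described below.

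**Figure D1:**
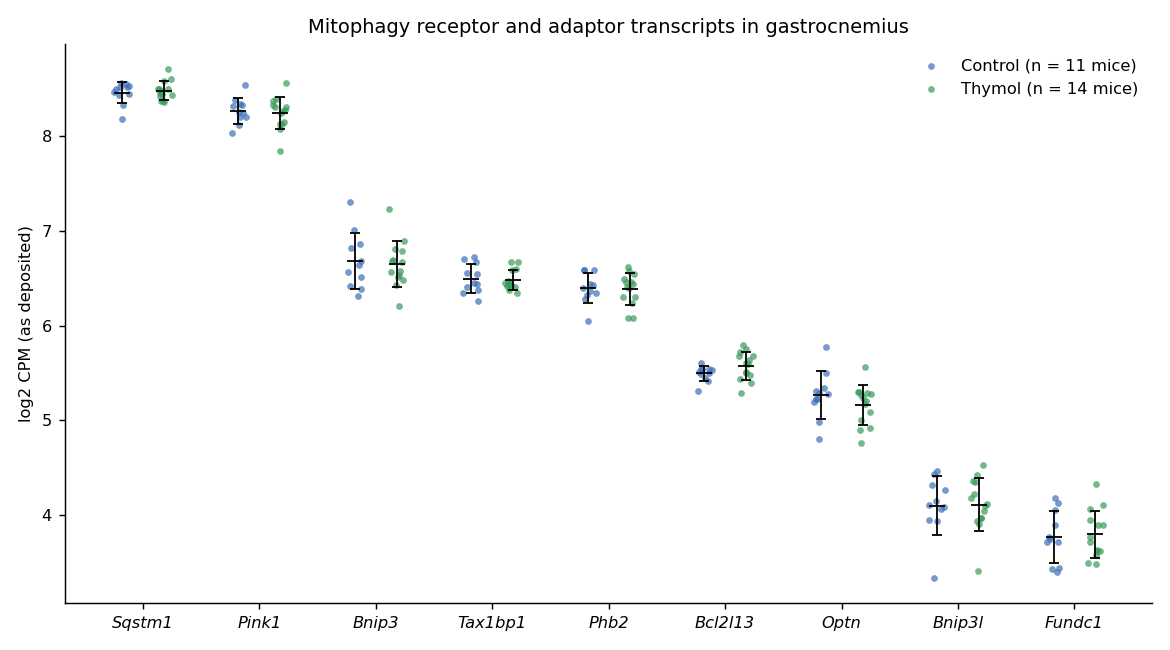
Level of the 9 transcripts (y axis, log2 CPM) in each mouse, ordered by mean level, with control mice in blue and thymol mice in green. Bars give the group mean and SD. The levels run from 8.47 (Sqstm1) to 3.78 (Fundc1), and for each gene the points of both groups overlap.

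Thymol-treated and control muscles had similar levels of these transcripts, and none of the 9 passed a threshold. The ubiquitin kinase Pink1 lay between 8.03 and 8.55 log2 CPM in controls (median 8.25) and between 7.84 and 8.57 with thymol (median 8.27). The ranges overlapped almost fully, and the lowest level belonged to thymol mouse 20. Its mean differed by -0.03 log2 (thymol minus control, SE 0.06, 95% interval -0.16 to 0.10), or 0.982-fold (limma, unadjusted p = 0.678). For Pink1 the interval spans 0.898-fold to 1.07-fold.

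Among the membrane receptors, Bnip3 lay between 6.31 and 7.30 log2 CPM in controls (median 6.65) and between 6.21 and 7.24 with thymol (median 6.62). Each group of mice held about a 2-fold range of Bnip3, 1.99-fold in controls and 2.04-fold with thymol, and its difference was -0.03 log2 (SE 0.10, 95% interval -0.24 to 0.17, limma unadjusted p = 0.743). Bnip3l, which encodes the related receptor NIX, lay between 3.34 and 4.46 in controls (median 4.10) and between 3.40 and 4.53 with thymol (median 4.11). Its range was 2.18-fold in each group, and the groups coincided, with a difference of 0.01 log2 (SE 0.11, 95% interval -0.23 to 0.24). Fundc1, a receptor linked to hypoxia-induced mitophagy, lay between 3.39 and 4.18 in controls (median 3.74) and between 3.48 and 4.32 with thymol (median 3.74). Its difference was 0.03 log2 (SE 0.11, 95% interval -0.19 to 0.25).

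Bcl2l13, a mammalian counterpart of the yeast receptor Atg32, had the smallest p of the 9. It lay between 5.31 and 5.60 log2 CPM in controls (median 5.51) and between 5.28 and 5.79 with thymol (median 5.60). The controls were close together. Several thymol mice lay above the control range and only thymol mouse 28 lay below it, and 8 of 14 thymol mice exceeded the control median. The difference was 0.08 log2 (SE 0.06, 95% interval -0.04 to 0.20, limma unadjusted p = 0.165). Phb2, an inner membrane receptor exposed when the outer membrane ruptures, lay between 6.05 and 6.59 in controls (median 6.40) and between 6.08 and 6.61 with thymol (median 6.42). The ranges of Phb2 overlapped, with a difference of -0.02 log2 (SE 0.07, 95% interval -0.15 to 0.12).

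The ubiquitin-binding adaptors were likewise close between groups. Optn lay between 4.80 and 5.78 log2 CPM in controls (median 5.27) and between 4.76 and 5.57 with thymol (median 5.22). It had the largest difference of the 9 in size, -0.10 log2 (SE 0.09, 95% interval -0.29 to 0.08, limma unadjusted p = 0.269), with 5 of 14 thymol mice above the control median. Sqstm1, whose product p62 is itself degraded with its cargo, lay between 8.19 and 8.56 in controls (median 8.50) and between 8.36 and 8.71 with thymol (median 8.47). Mean and median pointed in opposite directions for Sqstm1, since the mean difference was 0.02 log2 (SE 0.05, 95% interval -0.07 to 0.12) while 3 of 14 thymol mice exceeded the control median. Tax1bp1 lay between 6.26 and 6.73 in controls (median 6.45) and between 6.35 and 6.67 with thymol (median 6.44). The thymol range of Tax1bp1 fell inside the control range, and its difference was -0.02 log2 (SE 0.06, 95% interval -0.13 to 0.10).

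Over the 9 genes, 4 differences were above 0 and 5 below, with a median of -0.02 log2 beside -0.0014 over all 8829 genes. With limma and Benjamini-Hochberg adjustment over all genes, 0 of the 9 were called, beside 0.0% of all genes, at a threshold of 0.05. At an unadjusted p under 0.05 again 0 of the 9 were called, beside 3.53% of all genes, 1.83% higher and 1.7% lower with thymol. Every adjusted p of the 9 was 0.9999. An interval that includes 0 does not show equal levels. For Sqstm1 the interval, 0.951-fold to 1.09-fold, was the narrowest, and for Bnip3l it reached from 0.855-fold to 1.18-fold. Leaving out single mice turned the sign of 7 of the 9 differences, all but those of Bcl2l13 and Optn. In whole muscle, fewer cells of a type and less RNA per cell cannot be told apart, and transcript levels measure neither protein nor mitophagic flux.

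**Figure D2:**
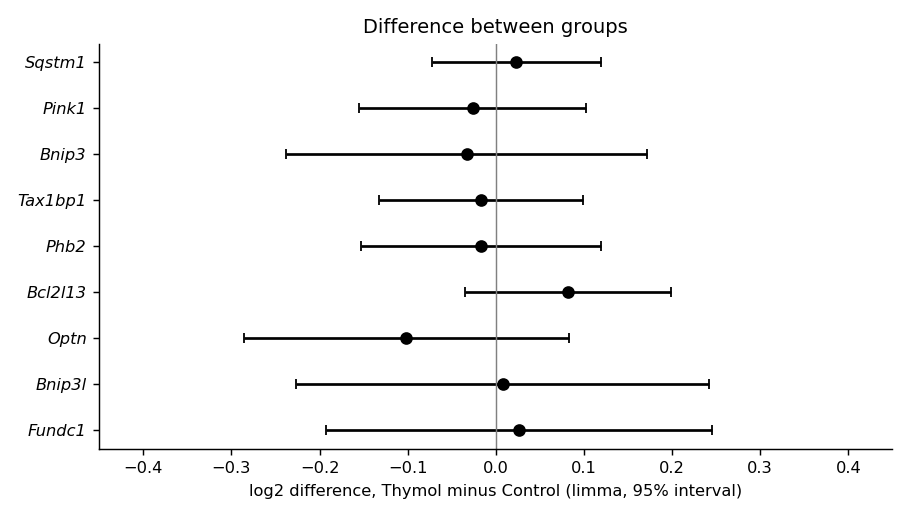
Difference between thymol and control mice (x axis, log2, limma estimate) for each of the 9 genes, with bars for the 95% interval. Each interval includes 0, and the estimates run from -0.10 (Optn) to 0.08 (Bcl2l13).

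The remaining machinery of mitophagy was read from a list of 45 genes, of which 40 were in the table (Usp30, Calcoco2, Nipsnap1, Spata33 and Trim5 had no row). Of the 40, 17 were higher and 23 lower with thymol, with a median of -0.02 log2, and 0 passed at an adjusted p under 0.05. At an unadjusted p under 0.05, 2 were higher and 1 lower, 7.5% of the list beside 3.53% of all genes. Wipi2, which recruits the LC3 conjugation machinery to the forming autophagosome, had a mean of 4.52 ± 0.13 log2 CPM (SD) in controls and 4.67 ± 0.08 with thymol. All 14 thymol mice lay above the control median of Wipi2, and the difference was 0.15 log2 (SE 0.06, limma unadjusted p = 0.0129, adjusted p = 0.9999). Vdac3, an outer membrane channel, was 0.17 log2 higher with thymol (SE 0.07, limma unadjusted p = 0.0264), with 10 of 14 thymol mice above the control median. Mul1, a mitochondrial ubiquitin ligase, was lower with thymol, with a difference of -0.18 log2 (SE 0.08, limma unadjusted p = 0.0268) and 3 of 14 thymol mice above the control median. These 3 did not pass the correction over all genes.

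Around PINK1, the proteases Parl and Oma1, which cleave mitochondrial proteins including PINK1, differed by -0.09 log2 (95% interval -0.23 to 0.05) and 0.02 (95% interval -0.17 to 0.22). The import receptor subunits Tomm7 and Tomm20 differed by 0.04 (95% interval -0.05 to 0.13) and -0.14 (95% interval -0.41 to 0.12). Of other outer membrane proteins, the channel Vdac1 (-0.03), the fusion factor Mfn2 (-0.01) and the transport adaptor Rhot1 (-0.04 log2) had unadjusted p between 0.610 and 0.842 (limma). Tbk1, the kinase that phosphorylates Optn and p62, differed by -0.24 log2 (95% interval -0.53 to 0.05). It was read from only 15 to 52 reads per mouse. Differences of the adaptor Nbr1 (-0.13), the receptors Fkbp8 (-0.04) and Ambra1 (-0.04), the prohibitin partner Phb (0.06) and the ubiquitin ligase Marchf5 (-0.02 log2) each had an interval that included 0. So did those of the regulators of receptor phosphorylation Ulk1 (-0.12), Pgam5 (-0.02), Csnk2b (-0.03) and Bcl2l1 (0.02 log2).

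**Figure D3:**
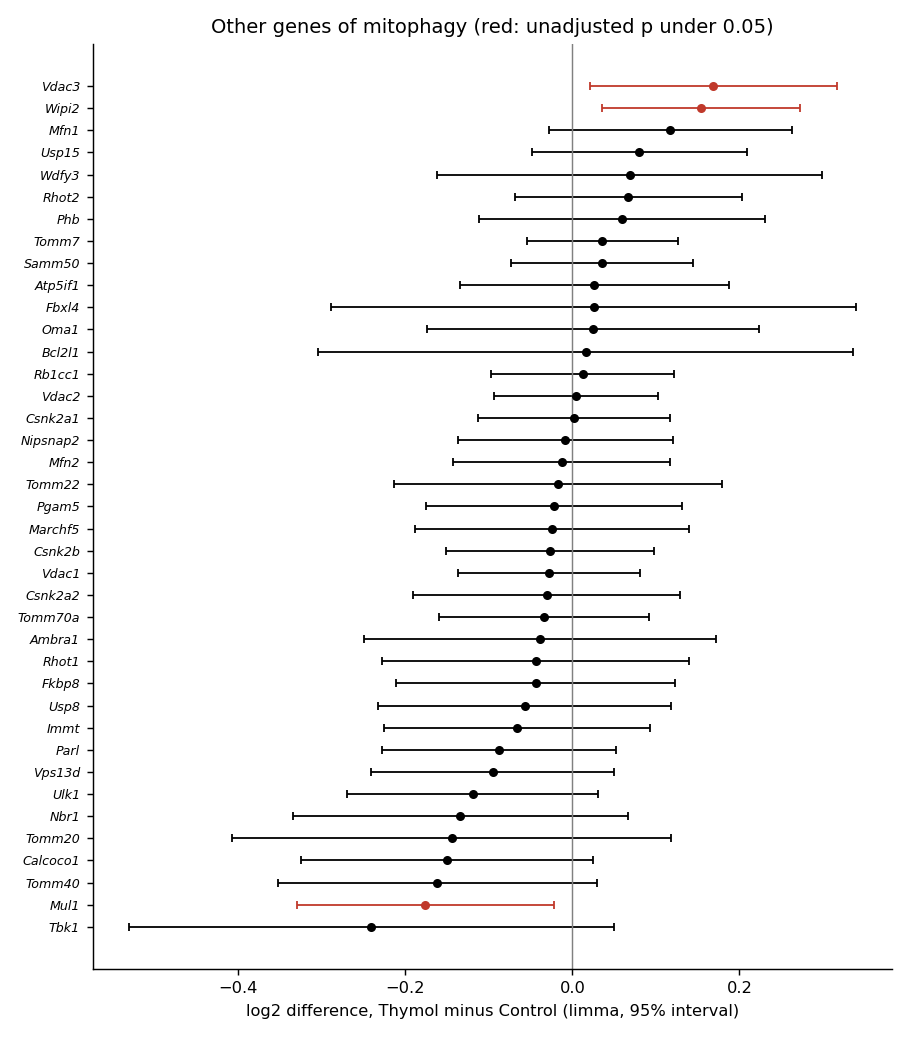
Difference between thymol and control mice (x axis, log2, limma estimate with 95% interval) for the other mitophagy genes reported here, ordered by difference. Red marks the 3 genes with an unadjusted p under 0.05, Vdac3 and Wipi2 above 0 and Mul1 below, none of which passed at an adjusted p under 0.05.

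Mice differed from each other in these transcripts by more than read counting gives, and to unequal degrees. Sqstm1 had a within-group SD of 0.10 log2, and only 0.838% of all genes had a smaller one. Bcl2l13 (SD 0.12, with 3.08% of genes below it) and Tax1bp1 (SD 0.13, with 4.13% below) were also among the steadiest transcripts in the table. Pink1 (0.16) and Phb2 (0.16) followed, while Optn (0.23), Fundc1 (0.26), Bnip3 (0.27) and Bnip3l (0.29) were near the median of all genes, 0.28 log2. Sqstm1 and Pink1 had the deepest counts of the 9, with medians of 2664 and 2282 reads per mouse. Counting alone gives Sqstm1 an SD of 0.03 and Bnip3 one of 0.05 log2, and for Fundc1, with a median of 102 reads, it gives 0.15. Compared with genes of its own level, Bnip3 was the most variable of the 9, with an SD 1.59 times the trend across all genes.

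The 9 genes did not vary as 1 group across mice. Of the 36 pairs, 23 had a positive Pearson r, the median r was 0.06 and the range was -0.31 to 0.56. The highest was Pink1 with Bnip3, r = 0.56 across 25 mice (permutation test, two-sided, p = 0.00367, adjusted p = 0.132 over 36 pairs). The rank correlation of the pair was rho = 0.65 (permutation p = 0.00054, adjusted p = 0.0194). It was r = 0.46 within controls and r = 0.65 within thymol mice, and r = 0.55 without the 2 mice farthest from the median of Pink1. By Pearson r 0 of 36 pairs passed after adjustment, with 2 at an unadjusted permutation p under 0.05, and by Spearman rho the Pink1 and Bnip3 pair passed. The paralogs Bnip3 and Bnip3l had r = 0.02, and the adaptors Optn and Sqstm1 had r = -0.18. Pink1 and Phb2 had r = 0.83 in controls and r = 0.16 with thymol, a difference with a permutation p of 0.0106 that did not pass over the 36 pairs (adjusted p = 0.380). No other pair had an unadjusted p under 0.05 for a difference of r between groups.

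**Figure D4:**
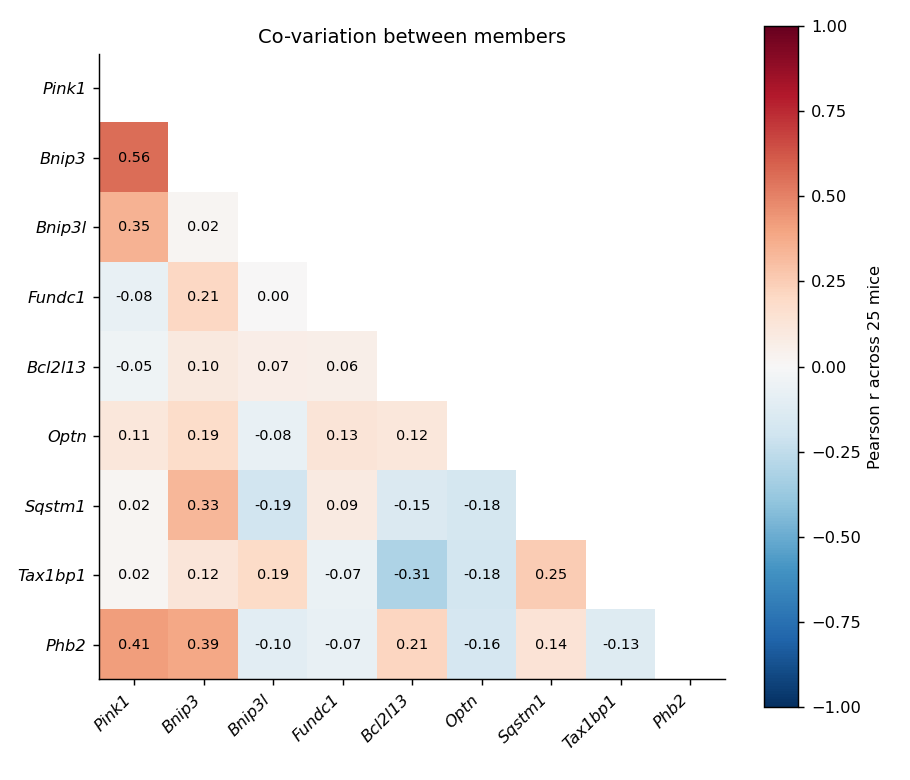
Pearson r across 25 mice for each of the 36 pairs of the 9 genes, with red for positive and blue for negative values on a scale from -1 to 1. The highest value is 0.56 for Pink1 with Bnip3, and most cells are pale, with a median r of 0.06.

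Pink1 and Bnip3 were higher in muscles with more slow-fibre transcript. The slow-fibre level was the mean log2 CPM of 9 measured markers (Myh7, Myl2, Myl3, Tnnt1, Tnni1, Tnnc1, Tpm3, Atp2a2 and Myoz2, with Myh7b not in the table), and 0 of their values were at 0 reads. Their summed level ran from 978.5 to 8120 CPM in controls and from 106 to 10258 CPM with thymol. The mean ran from 6.51 to 9.48 log2 CPM in controls and from 3.07 to 9.82 with thymol. Thymol mouse 20 had the lowest value, and the next lowest, thymol mouse 3, was at 5.99. The group means were 7.98 ± 0.90 and 7.75 ± 1.76 (SD, permutation test, two-sided, p = 0.711, adjusted p = 0.985 over 10 sample properties). The 7 muscle markers (Acta1, Ckm, Myh4, Myh1, Des, Mb and Ttn) averaged 13.15 ± 0.08 in controls and 13.17 ± 0.10 with thymol. They include the fast-fibre myosins Myh4 and Myh1, so their mean is not free of fibre type.

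Pink1 rose with the slow-fibre mean at r = 0.73 across 25 mice (permutation test, two-sided, p = 1e-04, adjusted p = 0.00900 over 90 pairs of a member with a sample property) and rho = 0.70 (permutation p = 0.0002, adjusted p = 0.00900). Within groups r was 0.58 for controls and 0.80 for thymol mice. Pink1 was at 7.84 log2 CPM in thymol mouse 20, which had the least slow-fibre transcript, and at 8.57 in thymol mouse 30, where the slow-fibre mean was 9.69. The call was lost without the lowest mouse. Without thymol mouse 20 r was 0.58 and the adjusted permutation p was 0.124, and without the 2 mice farthest from the median of Pink1 r was 0.51. The 9 markers singly gave r between 0.68 and 0.75, and between 0.55 and 0.61 without that mouse.

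Bnip3 rose with the slow-fibre mean at r = 0.67 (permutation test, two-sided, p = 0.00033, adjusted p = 0.0149) and rho = 0.80 (permutation p = 1e-05, the smallest that 100000 permutations can give, adjusted p = 0.0009). Within groups r was 0.79 for controls and 0.70 for thymol mice, and r was 0.62 without the 2 mice farthest from the median of Bnip3. Here thymol mouse 20 weakened the relation, since without it r was 0.77. Without thymol mouse 6, which had the highest slow-fibre mean and 7.24 log2 CPM of Bnip3, r was 0.63 and the adjusted permutation p was 0.0868. The fitted slope was 0.12 log2 of Bnip3 and 0.08 log2 of Pink1 per log2 unit of slow-fibre mean. With the slow-fibre mean fitted out, the correlation of Pink1 with Bnip3 was 0.13. With the slow-fibre mean as a covariate, the differences between groups were -0.0074 log2 for Pink1 and -0.0034 log2 for Bnip3.

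Of the other 7 genes, 0 passed against the slow-fibre mean, where r ran from -0.17 (Bcl2l13) to 0.39 (Optn). Without thymol mouse 20, r was 0.18 for Bcl2l13, 0.28 for Optn and 0.24 for Fundc1, which had r = -0.01 with it. Adipocyte, leukocyte, endothelial, fibroblast, nerve and immediate-early transcripts, depth, the share of reads on mitochondrial genome genes and library number gave no further pair past the adjusted threshold. The closest were Pink1 with the mitochondrial genome share, r = 0.47 (permutation p = 0.0182, adjusted p = 0.545), and Tax1bp1 with the leukocyte mean, r = 0.43 (permutation p = 0.0348, adjusted p = 0.643). None of these 10 sample properties differed between groups after adjustment, and the smallest permutation p was 0.0714 for immediate-early transcripts (adjusted p = 0.714).

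Bnip3 also followed Gabarapl1, which encodes an ATG8-family protein that binds such receptors on the autophagosome. Gabarapl1 lay between 5.10 and 5.79 log2 CPM in controls (median 5.46) and between 5.09 and 5.96 with thymol (median 5.34). The mice at the lower and upper end of both genes partly coincided, since thymol mouse 28 was lowest and thymol mouse 6 and control mouse 14 were among the highest for each. The pair had r = 0.76 across 25 mice (permutation test, two-sided, p = 3e-05, adjusted p = 0.00432 over 144 pairs of a member with a partner gene) and rho = 0.74 (permutation p = 4e-05, adjusted p = 0.00576). It was r = 0.86 within controls and r = 0.75 within thymol mice, and r = 0.62 without the 2 mice farthest from the median of Bnip3. Gabarapl1 itself had r = 0.48 with the slow-fibre mean, and 0.64 without thymol mouse 20. With that mean fitted out over all 25 mice, Bnip3 and Gabarapl1 had r = 0.68. That value was not particular to Gabarapl1. After the same fit Bnip3 had r = 0.69 with Car2, 0.69 with Smtnl1 and 0.63 with Lmod2, its nearest genes over the table, described below. The fit was not repeated without thymol mouse 20. Bnip3 with Gabarapl1 passed the adjusted threshold in each of 30 alternative settings, with r from 0.68 to 0.85. Pink1 with Gabarapl1 had r = 0.34, and -0.02 with the slow-fibre mean fitted out.

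**Figure D5:**
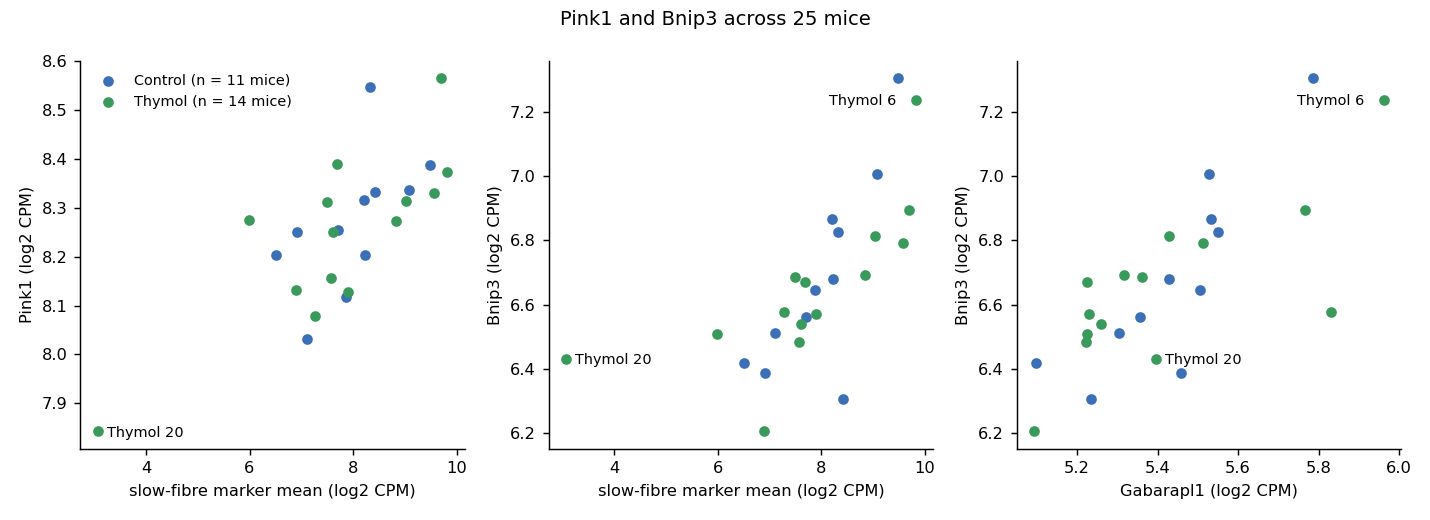
Levels in each of 25 mice (log2 CPM), control in blue and thymol in green: Pink1 against the slow-fibre marker mean (left, r = 0.73), Bnip3 against the same mean (middle, r = 0.67) and Bnip3 against Gabarapl1 (right, r = 0.76). Thymol mouse 20 sits alone at a slow-fibre mean of 3.07, and mice of both groups lie along each trend.

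The other 143 pairs of a member with a partner gene did not pass after adjustment. Of all 144 pairs, 7 had an unadjusted permutation p under 0.05 by Pearson r and 5 by Spearman rho. The 16 partners were the FoxO genes Foxo1 and Foxo3, their targets Fbxo32 and Trim63, Gabarapl1 and Map1lc3b, the regulators Tfeb, Nfe2l2, Keap1, Hif1a and Ppargc1a, the fasting and glucocorticoid genes Pdk4, Fkbp5 and Mt2, and the clock genes Dbp and Bmal1. Bnip3 had r = 0.10 with Foxo1, 0.25 with Foxo3 and -0.13 with Hif1a transcript. With Pdk4, a kinase gene induced by fasting, Bnip3 had r = 0.39 (permutation p = 0.0514, adjusted p = 0.778) and rho = 0.51 (permutation p = 0.0104, adjusted p = 0.749). The r of that pair was 0.62 in controls and 0.03 in thymol mice, a difference that was not tested. Sqstm1 with Map1lc3b, the LC3 gene, had r = 0.42 (permutation p = 0.0354, adjusted p = 0.778), and Fundc1 with Foxo3 had r = 0.46 (permutation p = 0.0200, adjusted p = 0.738). The strongest negative value was r = -0.48 for Bcl2l13 with the clock gene Bmal1 (permutation p = 0.0147, adjusted p = 0.738). In controls that pair had r = 0.15 and in thymol mice r = -0.55, and the difference was not tested. Larger contrasts between groups occurred in pairs not named above. Sqstm1 with Bmal1 had r = -0.64 in controls and 0.66 in thymol mice, and Fundc1 with Fbxo32 had 0.53 and -0.70. These were not tested either.

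Over all genes of the table, those most like Pink1 across 25 mice were Lmod2 (Pearson r = 0.80), an actin filament nucleator of striated muscle, Stard7 (0.78), a mitochondrial phosphatidylcholine carrier, and Plin3 (0.78), a lipid droplet coat protein. Those most like Bnip3 were Smtnl1 (0.84), Car2 (0.82), a carbonic anhydrase, and again Lmod2 (0.82). These genes themselves went with the slow-fibre mean, at r = 0.80 for Lmod2, 0.75 for Plin3, 0.71 for Smtnl1, 0.61 for Car2 and 0.61 for Stard7. At r above 0.7 there were 20 genes for Pink1 and 27 for Bnip3, but 9 for Tax1bp1, 2 for Optn and for Phb2, 1 for Bnip3l and for Fundc1, and 0 for Bcl2l13 and Sqstm1. How many such genes a typical gene of the table has was not counted, so no count can be called high or low. The counts were not repeated without thymol mouse 20. The genes most like Tax1bp1 were Ccar1 (0.79), Top1 (0.76) and Taok3 (0.75). For Optn they were Pde4dip (0.73), Anp32e (0.71) and Wfikkn2 (0.69), and for Phb2 they were Ppip5k1 (0.72), Sf3a1 (0.70) and H4c8 (0.68). Bnip3l was nearest to Ggnbp2 (0.71), Esf1 (0.64) and Gps2 (0.63), and Fundc1 to Rangap1 (0.72), Gxylt1 (0.65) and Ncaph2 (0.63). Bcl2l13 was nearest to 2310002L09Rik (0.68), Mcur1 (0.64) and Rbbp7 (0.63), and Sqstm1 to Mrps18c (0.68), Pes1 (0.68) and Siah1a (0.66). These nearest genes were picked as the highest correlations over the table and carry no test.

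In GENCODE M21 on GRCm38, Pink1 (ENSMUSG00000028756) lies at chr4:138313409-138326307, Bnip3 (ENSMUSG00000078566) at chr7:138890836-138909519 and Sqstm1 (ENSMUSG00000015837) at chr11:50199366-50210827, each on the minus strand. Bcl2l13 (ENSMUSG00000009112) lies at chr6:120836212-120892842, Tax1bp1 (ENSMUSG00000004535) at chr6:52713729-52766780 and Phb2 (ENSMUSG00000004264) at chr6:124712336-124716950, each on the plus strand. Bnip3l (ENSMUSG00000022051) at chr14:66985239-67008877, Fundc1 (ENSMUSG00000025040) at chrX:17556564-17572325 and Optn (ENSMUSG00000026672) at chr2:5020642-5064051 are on the minus strand. The 3′ end, where QuantSeq reads fall, overlaps a gene on the other strand for Sqstm1 (Mrnip), Bcl2l13 (Bid) and Phb2 (Gm15884), and the strand setting of the read counting is not given in the sources used here. Of the 31-base words in the last 500 bases of the Bnip3 transcripts, 32.13% also occur in transcripts of other genes, mostly Gm16439, and for Phb2 the share was 3.237%. The other 7 genes shared none. How reads from such stretches were divided was not tested, so the Bnip3 level is uncertain to that extent.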

How the data were processed

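Gastrocnemius RNA of 25 SAMP8 mice was sequenced as QuantSeq 3′ libraries. The authors mapped reads with STAR (version 2.5.3) to GRCm38, counted them per gene with HTSeq-count (version 0.6.1), kept genes with at least 30 reads in at least 6 samples and deposited log2 CPM, counts scaled to a fixed library size, after TMM scaling, with a small prior count. That prior lowers contrasts of rare transcripts. Columns were matched to mice by library name, and groups were taken from the sample titles.

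Whole reads were recovered from the steps between values for 100.0% of 220725 values (tolerance 0.05 reads). Depth was 4463818 to 9463418 reads per mouse (median 7503259). No molecular identifiers are named for these libraries, so counting SDs cover counting error only.

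Thymol and control were compared with limma 3.58.1 (R 4.3.3; lmFit and eBayes with trend, two-sided) on the deposited log2 values of all 8829 genes, with Benjamini-Hochberg adjustment and a threshold of 0.05. Correlations used Pearson r and Spearman rho with 100000 permutations, adjusted within families of 36, 144 and 90 pairs (numpy 2.4.6, scipy 1.17.1). Both procedures were tested on simulated data. The pathway counts include 1 gene whose own values are not reported here. Motifs were counted in RefSeq promoter windows. Alternatives were quantile normalization, median centring, the 75% of genes with the highest mean, voom on the recovered reads, moderation without trend or robust, sample weights, library number or slow-fibre mean as a covariate, the first number of the label as a block, and each mouse left out.

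The members, gene lists and tests were chosen with earlier results of these data known. The text names all members, preset pathway genes and those with an unadjusted p under 0.05, the preset partners, and the 3 genes nearest to each member; the pairs whose correlation was recomputed after fitting out the slow-fibre mean were picked after values were seen. The labels do not say more of how mice were housed or matched, and the paper reports randomization by body weight. Each p-value sets a result against the spread between these mice, with every mouse taken as independent.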

Additional observations from a re-analysis of the deposited data

How the results depend on the processing

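No member had an unadjusted p under 0.05, and 0 genes passed at an adjusted p under 0.05, in any of the 10 processing alternatives or 25 fits without 1 mouse, voom on recovered reads included. Pathway genes with an unadjusted p under 0.05 numbered 2 to 4. The sign turned with sample weights for Pink1 (0.00741) and Bnip3 (0.0026), and with the first label number as a block for Pink1 (0.0528), Bnip3 (0.00264), Sqstm1 (-0.00181) and Phb2 (0.0641), and the cause was not tested. The labels do not say what that number stands for. Over 9 pairs of mice with the same number in opposite groups the mean correlation of deviations was -0.002225. It was 0.0002139 over 145 opposite-group pairs with different numbers. Pairs within a group were not compared, so these means cannot tell whether the number marks a design feature. Without single mice the log2 difference ran from -0.0511 to 0.00438 for Pink1 (2 of 25 fits reversed), -0.0783 to 0.029 for Bnip3 (2), -0.0681 to 0.0619 for Bnip3l (8), -0.0144 to 0.0673 for Fundc1 (4), -0.00408 to 0.0338 for Sqstm1 (1), -0.0408 to 0.00632 for Tax1bp1 (3) and -0.0514 to 0.00704 for Phb2 (5). Bcl2l13 and Optn kept their sign in all 35. By Spearman rho 1 member pair passed, Pink1 with Bnip3, in place of 0. With the slow-fibre mean fitted out, 0 member and property pairs passed in place of 2, since its own pairs are removed by construction. Pairs that passed numbered 1 to 2 without single mice, 1 without thymol mouse 6 or 20. Read counting leaves 59.0% (Bcl2l13) to 96.3% (Pink1) of the variance within groups, with 69.2% for Fundc1, which had the fewest reads. Counting error was thus the smaller part for each gene, and noise from amplification or library preparation was not separated.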
